A study of Homo sapiens with 24 samples.

Results

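The RSPO3 locus was described here in ventricular-like cardiomyocytes derived from H9, a human embryonic stem cell line, across 4 histone marks. The locus is all counted regions that overlap a window of 160 kb on chromosome 6 (hg19 chr6:127400000-127560000), which holds RSPO3 at about 127439700 to 127519000. It holds 8 of the 153244 regions counted in the series. It was selected on measured values, because H3K4me3 and H3K27ac both rose at the promoter, so the differences in those 2 marks are given as a description with no test. H3K4me1 and H3K9me3 came from other libraries that the choice did not use, and they were tested.

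RSPO3 encodes a secreted R-spondin. R-spondins bind the receptors LGR4, LGR5 and LGR6 together with the ubiquitin ligases ZNRF3 and RNF43, which otherwise clear Wnt receptors from the cell surface, and so they raise the response of a cell to Wnt ligands. In mice, Rspo3 is needed for blood vessels of the placenta and for growth of the coronary arteries. H3K4me3 marks active promoters, H3K27ac active promoters and enhancers, H3K4me1 enhancers and promoter flanks, and H3K9me3 silenced chromatin.

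The cells with ZNF436 knocked down (ZNF436 encodes a zinc finger protein) were compared with control cells. Both groups were H9 cells put through the same cardiomyocyte differentiation and taken at day 15. Each mark was profiled by CUT&Tag, which tags DNA at nucleosomes bound by an antibody, in 3 knockdown and 3 control libraries, 24 libraries in all. The labels do not name separate cultures for the replicates, so p-values measure the spread between libraries, which may be technical. The labels do not say how ZNF436 was knocked down. The ZNF436 locus and the defining markers of cardiomyocytes were not checked here, since no gene annotation of hg19 was used. In such bulk libraries, a mark in more cells and more of the mark per cell cannot be told apart. Library totals ran from 11023905 to 13933927 counts for H3K4me3, 2955710 to 3681687 for H3K27ac, 3920283 to 4936265 for H3K4me1 and 2103185 to 2880412 for H3K9me3. Between 51.9% and 65.9% of the counts above 0 were even. Whether both mates of a read pair were counted is not stated in the labels, and its part in the values was not tested.

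Within the window, most H3K4me3 and H3K27ac counts of every library fell in the wide region over the RSPO3 start. The 250 bases before the gene start are shown because the locus was chosen for its promoter (RefSeq, GRCh38.p14, chr6:127118421-127118670, plus strand, a build other than that of the counts). The capitals mark the reverse complement of GGGCGG, the GC box bound by Sp-family factors.

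RSPO3: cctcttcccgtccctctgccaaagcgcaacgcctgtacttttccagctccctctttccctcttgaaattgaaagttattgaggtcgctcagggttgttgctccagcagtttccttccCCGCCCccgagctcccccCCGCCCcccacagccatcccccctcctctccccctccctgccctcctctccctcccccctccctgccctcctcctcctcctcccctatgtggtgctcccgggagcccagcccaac

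The stretch is rich in pyrimidines: C and T made up 74.4% of it on the gene strand, more than in 99.8% of the 35116 promoters of the table, whose median was 50.0%. It held 8 CpG dinucleotides, against a median of 11 over all promoters, and 43.7% of promoters held fewer. Both strands were searched for each word. The GC box GGGCGG occurred 2 times, starting at -133 and -115 from the gene start, and 42.6% of promoters held at least 1. No TATAAA (held by 10.7% of promoters), CCAAT (32.0%), GATAA (20.4%) or CANNTG (61.8%) was present in these letters. The words bound by the TCF/LEF factors of the Wnt pathway were searched as well. Neither CTTTGAA (held by 3.8% of promoters) nor CTTTGAT (2.26%) was present, and neither CTTTGTA (2.35%) nor CTTTGTT (4.5%) was. At least 1 of these 4 was held by 12% of promoters. The 2 matches of GGGCGG do not overlap each other or a match of another word. They describe these letters alone.

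The promoter region (hg19 chr6:127437365-127444343) is 6979 bp wide, wider than 99.34% of all regions, whose median width is 708 bp. It spans the RSPO3 start. H3K4me3 there was 183, 170 and 202 normalised CPM (the count scaled to a common library size) in the 3 knockdown libraries. It was 74.3, 81.4 and 81.3 CPM in the 3 control libraries. Every knockdown library lay far above every control library, also as raw counts, of which there were 1963, 2139 and 2449 in knockdown libraries and 885, 1116 and 946 in control libraries. The means were 185 ± 16.1 CPM in knockdown cells and 79.0 ± 4.05 CPM in control cells (SD, n = 3 each). The log2 fold change, knockdown over control, was 1.23 (SE 0.07, 95% interval 1.07 to 1.39), a 2.34-fold difference.

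H3K27ac at the promoter was 74.8, 80.7 and 98.6 CPM in knockdown libraries, against 11, 11 and 25.7 CPM in control libraries. The groups lay far apart, and control replicate 3 stood above the other control libraries, with 70 counts against 32 and 30. The means were 84.7 ± 12.4 CPM in knockdown cells and 15.9 ± 8.47 CPM in control cells (SD, n = 3 each). The log2 fold change was 2.41 (SE 0.33, 95% interval 1.73 to 3.09), or 5.32-fold. Without control replicate 3 it was 2.98.

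Set against the other regions per kb of width, the promoter changed its place. In H3K27ac it held 12.1 CPM per kb in knockdown cells, above 89.0% of all regions, and 2.28 CPM per kb in control cells, above 37.6%. In H3K4me3 it held 26.6 CPM per kb in knockdown cells, above 96.7% of regions, and 11.3 CPM per kb in control cells, above 92.3%. Control cells carried H3K4me3 at this promoter beside a level of H3K27ac per kb below that of the median region. The place per kb depends on width, and this region is 6979 bp wide against a median of 708 bp. Its total H3K27ac in control cells was 15.9 CPM, and all 3 control libraries reached the level that the filter on low counts asks for. A higher H3K4me3 log2 fold change was seen at 422 of 26773 regions that passed the count filter, and a higher H3K27ac log2 fold change at 268 of 61484.

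**Figure D1:**
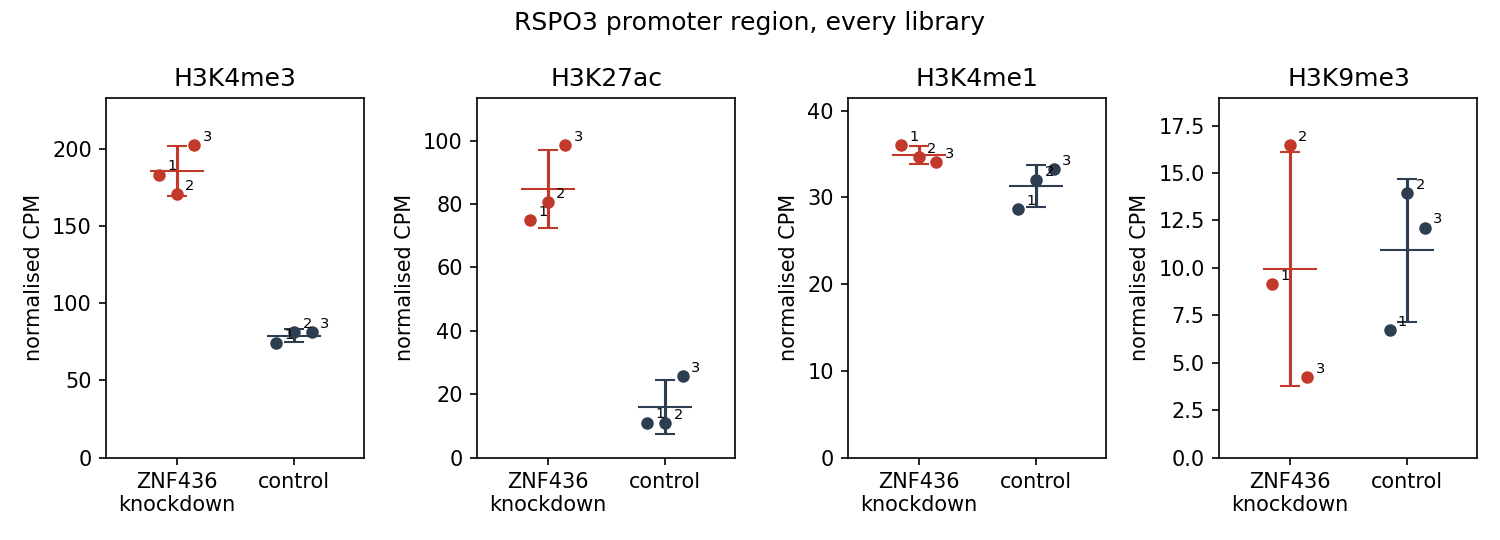
Normalised CPM of the RSPO3 promoter region in every library, with 1 panel per mark on its own linear scale from 0. Points are libraries with their replicate number, and bars are the mean ± SD of ZNF436 knockdown (red, left) and control (blue, right), n = 3 each. H3K4me3 and H3K27ac are higher in all knockdown libraries, H3K4me1 differs by little, and the H3K9me3 groups overlap.

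H3K4me1, the first of the marks that the choice of the locus did not use, did not pass the test. It was 36.0, 34.7 and 34 CPM in knockdown libraries, against 28.6, 32.0 and 33.3 CPM in control libraries. Every knockdown library lay above every control library, but by little: the lowest knockdown value was 34 and the highest control value 33.3. The means were 34.9 ± 1.03 CPM in knockdown cells and 31.3 ± 2.4 CPM in control cells (SD, n = 3 each). Knockdown over control, the log2 difference came to 0.16 (SE 0.22), and edgeR's quasi-likelihood F test put the adjusted p at 0.832. The 95% interval of the fold ran from 0.819 to 1.52, so a fall or a rise within that range is compatible with these libraries. Of all tested regions, 63.7% had a lower H3K4me1 log2 fold change.

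H3K9me3 at the promoter rested on few counts and varied between replicates. Per kb it lay above 44.0% of all regions in knockdown cells and above 57.1% in control cells. It was 9.16, 16.5 and 4.24 CPM in knockdown libraries, against 6.71, 14 and 12.1 CPM in control libraries, from 10 to 34 counts per library. The knockdown libraries spread beyond the control libraries at both ends. Here the log2 difference was -0.14 (SE 0.51), and the adjusted p from edgeR was 0.964. Its 95% interval, as a fold, ran from 0.451 to 1.83, so a fall or a rise within that range is compatible with these few counts. The interval does not give the smallest change that the test could call. The sign turned, still without passing the test, when knockdown replicate 3 (0.22) or control replicate 2 (0.02) was left out.

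The other 7 regions of the window fell into a group of 2 close behind the promoter, inside the gene, and a group of 5 beyond the end of the gene. No region was counted between them over 101.6 kb, which takes in most of the RSPO3 body. The first region behind the promoter (chr6:127445128-127445689) begins 0.784 kb after it. H3K4me3 there was 4.20, 3.19 and 2.98 CPM in knockdown libraries, from 45, 40 and 36 counts, against 0.588, 0.438 and 0.516 CPM in control libraries, from 7, 6 and 6 counts. The log2 fold change was 2.73 (SE 0.48). All 3 knockdown libraries and 0 control libraries reached the level that the filter on low counts asks for, so the region could pass only by being higher in knockdown cells, in a mark the locus was chosen on, and nothing is read from its size. Per kb it held 7.47, 5.67 and 5.29 CPM of H3K4me3 in knockdown libraries, against 1.05, 0.779 and 0.918 CPM in control libraries. Both groups were below their promoter means of 26.6 and 11.3 CPM per kb.

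H3K27ac in that region was 0, 4 and 5 counts in knockdown libraries and 0 in each control library. A count of 0 allows up to 3 counts, which is 1.03 to 1.10 CPM in the control libraries and covers counting error only. The groups overlapped, since knockdown replicate 1 also held 0. The second region (chr6:127447709-127448148) held 5, 14 and 11 counts of H3K4me3 in knockdown libraries, against 0, 4 and 4 in control libraries. H3K27ac there was 0, 10 and 5 counts in knockdown libraries, against 2, 0 and 1 in control libraries, and H3K4me1 was 3, 23 and 12 counts in knockdown libraries, against 9, 4 and 6 in control libraries. In both regions knockdown replicate 1 was the lowest knockdown library in H3K27ac and H3K4me1, at or below some control libraries.

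Beyond the end of RSPO3, the 5 regions lay 110.1 to 118.7 kb from the gene start and differed from the promoter in their marks. In H3K4me3 they held at most 1 count in any library. H3K9me3 had the most counts there. The best covered region (chr6:127554919-127555487) held 26.2, 16.2 and 17.9 CPM per kb in knockdown libraries, against 18.5, 15.1 and 12.9 CPM per kb in control libraries. The promoter region held 1.43 CPM per kb of H3K9me3 in knockdown cells and 1.57 CPM per kb in control cells. It is 6979 bp wide, against 569 bp for the distal region, and their counts were closer. The distal region had 26, 19 and 24 counts in knockdown libraries and 22, 16 and 17 in control libraries. At the promoter these were 16, 34 and 10 counts in knockdown libraries and 14, 26 and 28 in control libraries. The groups overlapped in the distal region, where the log2 difference in H3K9me3 was 0.36 (SE 0.50) and edgeR gave an adjusted p of 0.892. H3K27ac in the same region was 0, 8 and 16 counts in knockdown libraries and 0 in each control library. The last region inside the window (chr6:127558301-127558539) held 8, 5 and 1 counts of H3K9me3 in knockdown libraries, against 2, 0 and 15 in control libraries, and 0 counts of H3K4me3 and H3K4me1 in all libraries.

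**Figure D2:**
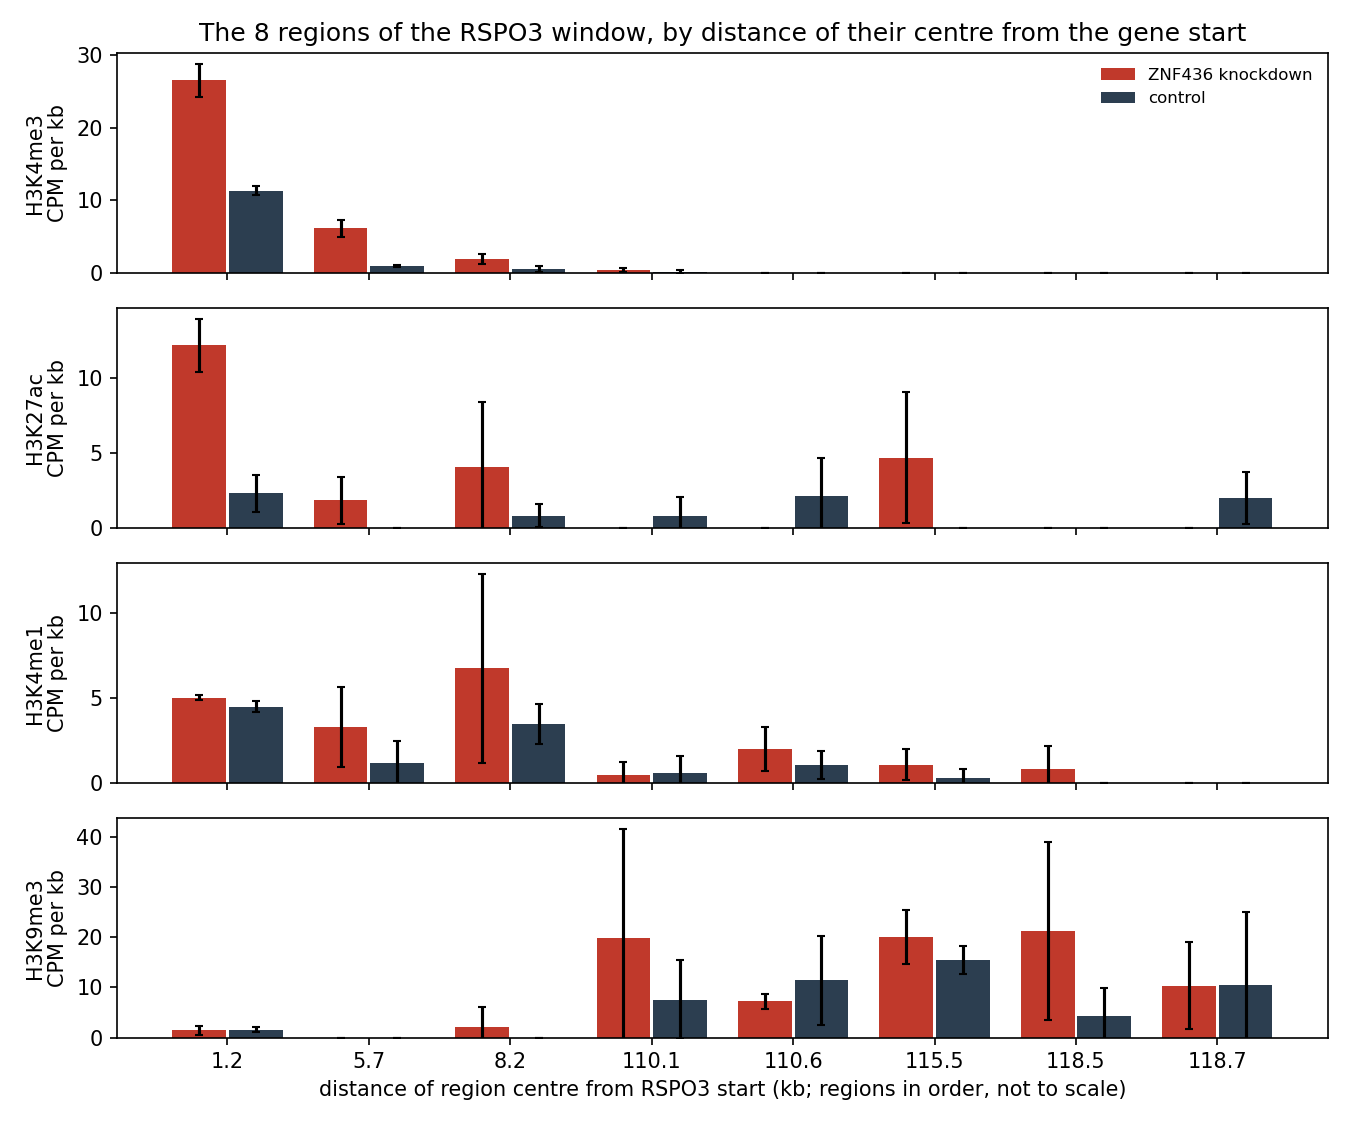
Mean normalised CPM per kb of the 8 regions of the RSPO3 window in ZNF436 knockdown (red, left bar) and control cells (blue, right bar), with SD bars (n = 3 each), by distance of the region's centre from the gene start in kb; regions are in order and not to scale. As group means, H3K4me3 and H3K27ac peak at the promoter region, where knockdown cells reach 26.6 and 12.1 CPM per kb. H3K9me3 per kb is higher in the 5 regions beyond the gene, which are far narrower than the promoter region.

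Of the 8 regions, 2 passed the filter on low counts in H3K4me3, 1 in H3K27ac, 1 in H3K4me1 and 2 in H3K9me3. Both H3K4me3 regions and the H3K27ac region that passed had all knockdown libraries above all control libraries, which was true of 8.49% of all tested regions in H3K4me3 and 9.14% in H3K27ac. Since the locus was chosen on these marks, nothing is read from that. In H3K4me1 the 1 region that passed also had groups that did not overlap, against 7.9% of all tested regions, and in H3K9me3 neither region did, against 7.17%. By edgeR's quasi-likelihood test, 0 regions of the window were called in H3K4me1, where 0% of 85815 tested regions were called, and 0 in H3K9me3, where 0.00982% of 30565 were called. At an unadjusted p under 0.05, edgeR held 0 of the 1 window region tested in H3K4me1, against 9003 of all 85815 tested regions. In H3K9me3 it held 0 of the 2 window regions tested, against 2541 of all 30565. With so few window regions tested, nothing is read from these counts. DESeq2 called 0 regions of the window in H3K4me1, against 0.103% of all regions. In H3K9me3 it called 1.56% of the 2121 regions to which it gave an adjusted p, and it gave none to any region of the window.

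Summed over the 7 regions outside the promoter, H3K4me3 came to 4.67, 4.38 and 3.97 CPM in knockdown libraries, against 0.588, 0.802 and 0.860 CPM in control libraries. H3K27ac summed to 0, 8.33 and 8.01 CPM in knockdown libraries and 2.41, 2.94 and 0.367 CPM in control libraries, so that the groups overlapped. H3K4me1 averaged 6.55 ± 4.12 CPM in knockdown cells and 2.88 ± 0.70 CPM in control cells (SD, n = 3 each; exact permutation test, two-sided, p = 0.3). That difference of 3.67 CPM was 1.45 CPM without knockdown replicate 2. H3K9me3 averaged 25.6 ± 11.4 CPM in knockdown cells and 18.5 ± 7.30 CPM in control cells (SD, n = 3 each; exact permutation test, two-sided, p = 0.5). Without knockdown replicate 1 that difference of 7.03 CPM was 0.64 CPM. An exact permutation test of 3 libraries against 3 cannot go below p = 0.1. The promoter region held between 97.5% and 98.1% of the window's H3K4me3 counts in knockdown libraries, against 99.0% to 99.2% in control libraries. Of the H3K27ac counts it held 90.64% to 100% in knockdown libraries and 78.95% to 98.59% in control libraries. Per kb, it held 1.58 CPM of H3K27ac in control replicates 1 and 2. That was below the 2.88 CPM per kb of chr6:127558301-127558539 in replicate 1, from 2 counts. It was also below the 4.86 CPM per kb of chr6:127550096-127550548 in replicate 2, from 6 counts.

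At the edges of the window, the last region before it (chr6:127382715-127383017) lies 17.0 kb outside and carried H3K9me3, at 1.72, 2.42 and 1.27 CPM in knockdown libraries against 5.27, 3.22 and 8.66 CPM in control libraries. The groups did not overlap, but the values came from 3 to 20 counts per library, the region failed the filter on low counts and it was not tested. The share of all regions with every control library higher was not counted, so nothing is read from that. This region holds 0 counts of H3K4me3 in all 6 libraries. The first region after the window (chr6:127586880-127590038), 26.9 kb outside, carried strong H3K4me3. It held 123, 142 and 135 CPM in knockdown libraries, against 139, 147 and 144 CPM in control libraries (log2 fold change -0.10, SE 0.07). Per kb it held 39.1 to 44.9 CPM in knockdown and 43.8 to 46.4 CPM in control libraries, above the RSPO3 promoter in both groups. H3K27ac there was 64.3 ± 9.36 CPM in knockdown cells and 67.3 ± 13.9 CPM in control cells (SD, n = 3 each).

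In RefSeq order, the protein-coding genes that follow RSPO3 are RNF146, a ubiquitin ligase that directs the breakdown of the Wnt pathway scaffold axin, and ECHDC1, a metabolic decarboxylase. The gene before it is CENPW, which encodes a centromere protein. Which of these genes each region belongs to was not assigned. Over the 1.5 Mb on each side, 147 regions were counted. In H3K4me3, 13 of them passed the filter, with log2 fold changes from -0.80 to 0.37 and a median of -0.10, beside a median of -0.01 over all tested regions. In H3K27ac, 53 passed, with a median of 0.03, and 3 of them lay above the 2.41 of the promoter. The highest, at 5.18, passed the filter through its knockdown libraries, as 0 control libraries reached the level asked for. The promoter was chosen for its rise in both marks, so its difference from these neighbours was not tested.

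**Figure D3:**
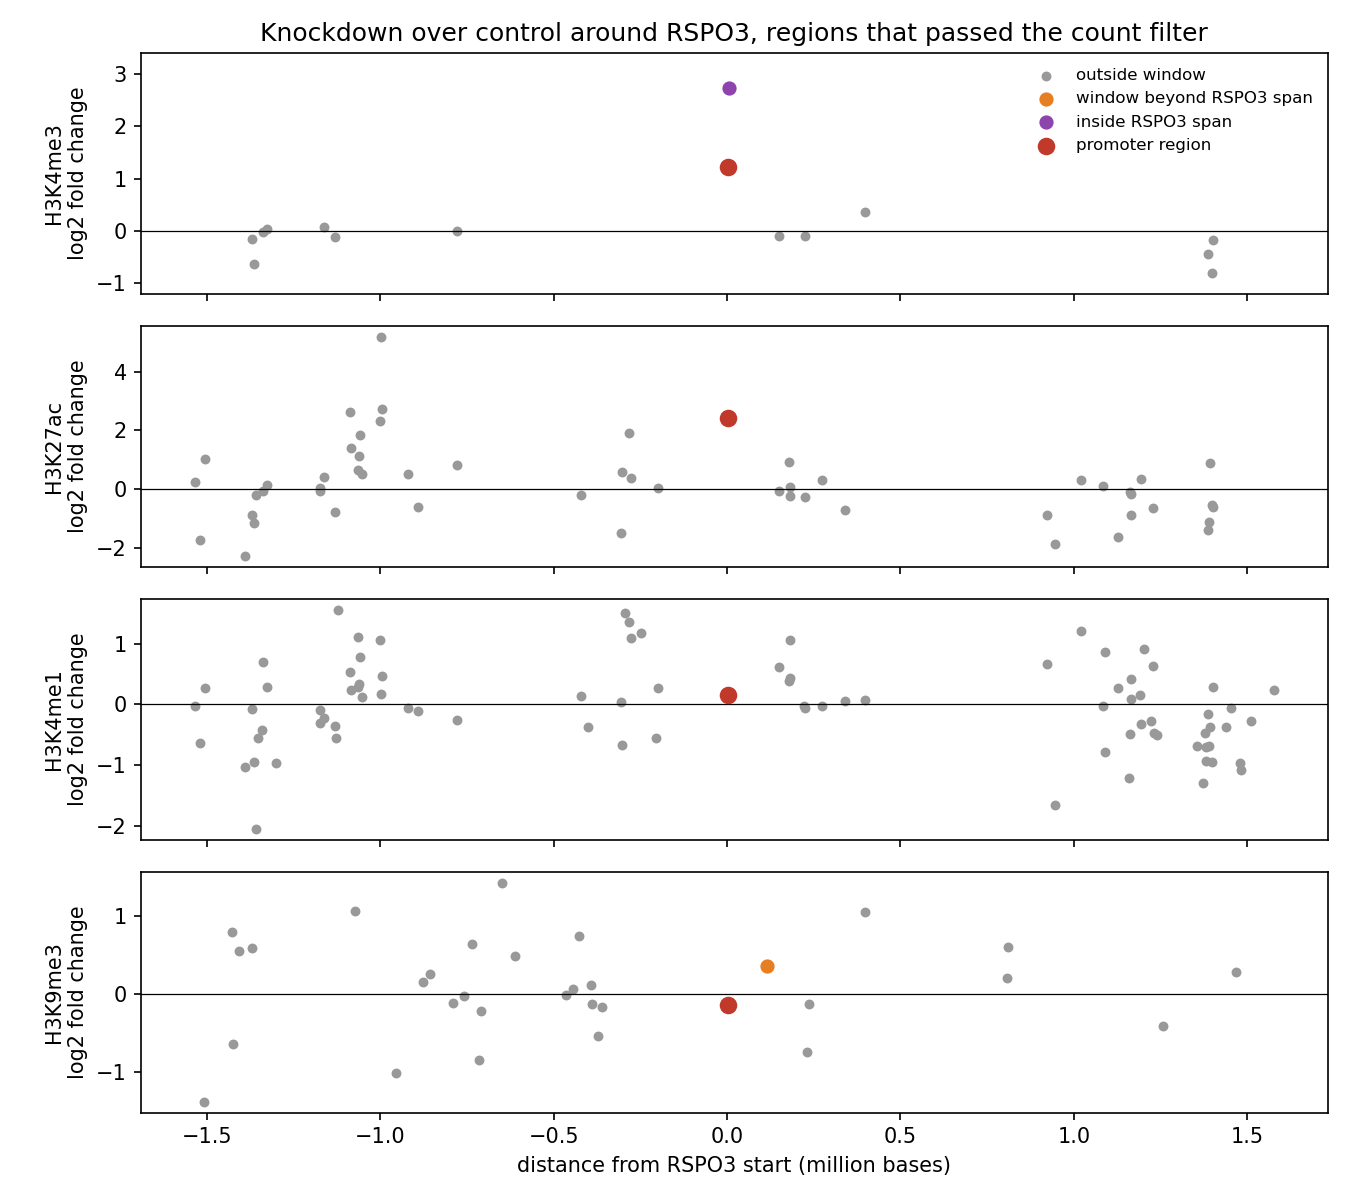
Log2 fold change, ZNF436 knockdown over control, of regions that passed the count filter within 1.5 Mb of the window, by distance from the RSPO3 start in Mb, with 1 panel per mark. The promoter region is red, other window regions are purple and orange, and regions outside are grey; in H3K4me3 the 13 grey points lie between -0.80 and 0.37. The H3K4me3 height of the 2 window points was set by the choice of the promoter and, for the purple point, by the filter, which it passed through its knockdown libraries.

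Across the genome, the regions most like the RSPO3 promoter were sought by Pearson's r over its 12 H3K4me3 and H3K27ac libraries, on log2 CPM centred on each mark's mean. The libraries of a mark share the same groups, so r is a description. Of 23050 regions compared, 74 had r over 0.9 and 39 had r under -0.9. The 5 highest lay on chromosome 3 (chr3:75550641-75556745, r = 0.97), chromosome 12 (chr12:133314793-133317711, 0.97), chromosome 1 (chr1:202933914-202937772, 0.97), chromosome 10 (chr10:6204999-6208010, 0.96) and chromosome 8 (chr8:7916699-7918487, 0.96). Their H3K27ac log2 fold changes ran from 0.75 on chromosome 1 to 2.53 on chromosome 8. Their H3K4me3 log2 fold changes ran from 0.28 on chromosome 1 to 1.40 on chromosome 8. Their levels differed from RSPO3: the chromosome 12 region had 1.05 ± 0.08 CPM of H3K4me3 in knockdown cells and 0.46 ± 0.08 CPM in control cells, beside 64.6 ± 13.1 CPM of H3K27ac in knockdown cells and 21.8 ± 7.76 CPM in control cells (SD, n = 3 each). In H3K4me3 that region passed the filter on low counts through its knockdown libraries. The chromosome 8 region did so in H3K27ac (11.3 ± 1.93 CPM in knockdown cells, 1.93 ± 1.54 CPM in control cells). The filter thus set the direction of these 2 differences, and nothing is read from them.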

How the data were processed

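The deposited files give raw counts of CUT&Tag reads per region, with no normalization, over 1 list of regions, the same in all 24 libraries. Per the submitters' processing notes, the build was hg19 and the tools were deepTools 3.5.4, bedtools 2.30.0 and Bowtie2 2.4.5, with no roles. The peak caller and read filters are not given in the sources used here. Mark, group and replicate came from the sample titles. Marks were fitted separately, 6 libraries each, in R 4.3.3 with edgeR 4.0.16: filterByExpr, TMM scaling, robust quasi-likelihood test, group as the only term, and Benjamini-Hochberg adjustment over all tested regions, with calls at an adjusted p under 0.05. SE is the log2 fold change over the square root of F, and 95% intervals use the fit's degrees of freedom. CPM values use TMM-scaled totals over the regions that passed the filter; log2 CPM adds a prior count of 2. The fit was also run on simulated counts with planted changes, and nothing about these libraries is concluded from that run. Positions count from 1.

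The regions named are the promoter, the regions with most CPM inside the gene, the first regions inside and outside the window's edges and the 5 most like the promoter; the best covered distal region was added after its values were seen. The locus and these rules were chosen with earlier results of these data known. Lists of Wnt pathway genes and cell type markers were not run, as they need gene positions on hg19. Alternatives were RLE size factors, library totals, DESeq2 1.42.0, no filter, a filter at 30 reads, a replicate block, leaving out each library, and sums within the gene.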

Additional observations from a re-analysis of the deposited data

How the results depend on the processing

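The promoter's H3K4me3 and H3K27ac rose under every alternative run: 1.22 to 1.23 and 2.33 to 2.50 (log2) under other scalings, filters, DESeq2 and the replicate block. Leaving out 1 library gave 1.16 to 1.30 for H3K4me3 and 2.22 to 2.98 for H3K27ac, the highest without control replicate 3. H3K4me1 stayed uncalled at 0.09 to 0.20 without 1 library. H3K9me3 ran from -0.74 to 0.22 without 1 library and changed sign, uncalled, without knockdown replicate 3 (0.22) and control replicate 2 (0.02); the cause was not tested. Same-numbered libraries of the groups did not deviate together (correlations from -0.10 to 0.06). With the replicate number as a block, log2 fold changes were 1.23 for H3K4me3, 2.50 for H3K27ac, 0.16 for H3K4me1 and -0.24 for H3K9me3, and no call changed. Calls in the window stayed at 0 for H3K4me1 under all alternatives and for H3K9me3 under all but DESeq2 and the strict filter, under which no region of the window had an adjusted p in H3K9me3. Differences of the sums outside the promoter kept their sign; without 1 library they ran from 0.64 to 11.5 CPM for H3K9me3, 1.45 to 5.52 for H3K4me1, 2.10 to 6.27 for H3K27ac and 3.42 to 3.77 for H3K4me3. Over the regions inside the gene alone, the differences were 0.97 CPM for H3K9me3 (exact permutation p = 1), 2.66 for H3K4me1 (exact permutation p = 0.4), 2.44 for H3K27ac and 3.56 for H3K4me3. Without a filter H3K9me3 was -0.32, with a median of 0.20 over all regions. RLE factors and library totals moved the median of all regions by under 0.05. H3K9me3 at the promoter rests on 10 to 34 counts per library.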

Other observations

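About 1 Mb upstream of RSPO3, a stretch of 93.8 kb (chr6:126351042-126444868) held regions with H3K27ac. It was picked after its values were seen, as the span of the 4 flanking regions, of 53 that passed the filter, with an H3K27ac log2 fold change over 2, so it has no test. The values are a description, since the pick set the direction of these 4 regions. Of the 13 regions in the stretch, 9 passed the filter in H3K27ac.

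The first of the 4 (chr6:126351042-126352611) held 23.5, 36.0 and 35.4 CPM of H3K27ac in knockdown libraries, against 4.14, 5.14 and 5.87 CPM in control libraries. The last (chr6:126443922-126444868) held 25.5, 16.7 and 29.6 CPM in knockdown libraries, against 5.51, 0.367 and 4.77 CPM in control libraries. Between them, chr6:126440165-126440652 held 26, 32 and 32 counts in knockdown libraries, against 0, 2 and 0 counts in control libraries. That region passed the filter through its knockdown libraries, as 0 control libraries reached the level asked for. So did chr6:126438814-126439499, where 3 knockdown libraries and 1 control library reached it.

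H3K4me1 was present in the same stretch: 10 of its regions passed the filter. All 10 had log2 fold changes above 0, from 0.12 to 1.10, beside a median of -0.03 over all tested regions. None was called in edgeR's quasi-likelihood test, which called 0% of the 85815 regions tested in H3K4me1. The share of all tested regions above 0 was not counted. The stretch was picked on a knockdown rise in H3K27ac, so nothing is read from this count of 10. At chr6:126440165-126440652 only knockdown replicate 3 lay above the control libraries (2.33, 1.71 and 5.19 CPM in knockdown, 2.48, 2.93 and 2.86 CPM in control). At chr6:126438814-126439499, 3 knockdown libraries and 1 control library reached the level of the filter, so that region passed through its knockdown libraries. It is among the 10, and the filter favoured its direction. Over all 84 flanking regions tested in H3K4me1, these 10 included, 38 were higher and 46 lower. Neighbouring regions are not independent of each other. No region of the stretch passed the filter in H3K4me3. Other regions with H3K4me3 lie nearer to the stretch than the RSPO3 promoter does. An example is chr6:126306499-126309247, with 58.5 ± 6.35 CPM in knockdown cells and 63.1 ± 5.76 CPM in control cells (SD, n = 3 each). Whether the stretch acts on RSPO3 or on another gene was not tested.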
